A study of Mus musculus with 45 samples.

Results

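Hepatic stellate cells (HSCs) from mice fed a Western diet for 24 weeks were compared with HSCs from mice fed the same diet for 16 weeks. The comparison took 8 of the 45 libraries of the series, 4 at 16 weeks and 4 at 24 weeks, chosen by the titles of the columns in the table of exon read counts. At 24 weeks 0 of the 13510 rows tested were called different from 16 weeks. The 95% confidence interval of the change lay within 2-fold for 67.7% of the rows and crossed or passed that limit in the rest. Over 4 lists of responding rows the mean response at 24 weeks stood at 81.0% to 95.5% of its 16-week size, and with any one library left out at 66.1% to 101.2%. A library was about as far from libraries of its own time point as from those of the other.

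HSCs lie between the sinusoidal endothelium and the hepatocytes, where the quiescent cell stores vitamin A as retinyl esters in lipid droplets. In injured liver they lose these stores and become contractile myofibroblasts that secrete the collagens of scar tissue, and part of this change can be undone when the injury stops. A diet rich in fat, cholesterol and sugar leads to steatosis, then inflammation and later fibrosis in mice.

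The mice were C57BL6/J by their labels and male C57BL/6JBomTac by the study's methods, the diet (WD) was combined with fructose in the drinking water, and the control group received chow. Feeding was started at different ages so that all mice were the same age at the end, and the age at the first exposure to WD therefore differed between the 16-week and the 24-week groups together with its length. All groups were FACS sorted by the autofluorescence of retinoids, a gate that passes cells with retinoid stores and not those that have lost them. The WD experiment held 16 libraries, 4 each from chow and from 12, 16 and 24 weeks of WD. A further 14 libraries came from mice given vehicle or carbon tetrachloride (CCl4), a hepatotoxin, and those at 8 weeks of CCl4 and their vehicle controls served here to define lists of rows.

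The rows could not be given gene names. The table lists 23999 identifiers, of which 23659 matched RefSeq genes, but the counts beside them did not follow those genes. Of 12 identifiers of HSC markers, 6 had at most 3 counts in any of the 16 WD libraries, among them the collagens Col1a1 and Col3a1, the filament gene Des and the protease inhibitor Timp1. Of 6 identifiers of genes that every cell expresses, 2 (B2m, Tpt1) had counts that low. Among the 15 rows with the highest counts, 8 stood under identifiers of receptors or small RNAs. Rows were therefore cited by their line in the table, and neither the purity of the HSCs nor the markers of other liver cells could be checked. The identifiers and their order did not differ between the tables of both experiments, and a line was taken as the same gene in both. The mean levels of 12978 lines had a rank correlation (Spearman's rho) of 0.978 between the chow and the vehicle groups, across lines, which are not independent replicates.

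The 8 libraries held 3563264 to 6404105 counts. By these totals alone, 3 counts in a library were worth 0.468 to 0.842 CPM (counts scaled to a fixed library size). The CPM of rows given below also carry edgeR's scaling factors (TMM), 0.97 to 1.08 in the 8 libraries, so these limits hold for them only approximately. These limits cover counting error only. A library at 16 weeks contained on average 14260 ± 211 rows with at least 3 counts, and a library at 24 weeks 14370 ± 198 (SD, n = 4 each, exact permutation test, two-sided p = 0.51). The median log2(CPM + 1) was 5.31 ± 0.036 at 16 weeks and 5.34 ± 0.015 at 24 weeks (SD, n = 4, exact permutation test, p = 0.14), where 4 against 4 libraries cannot give a p below 0.029. The upper quartile of the levels was 6.49 ± 0.043 and 6.48 ± 0.013 (SD, n = 4, exact permutation test, p = 0.80). None of these 3 differences passed the test.

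The first question was whether any gene changed between 16 and 24 weeks. Counts were compared with edgeR's quasi-likelihood test, with all 16 WD libraries in one fit, and a row was called where its Benjamini-Hochberg adjusted p did not exceed 0.05 and its mean log2CPM exceeded 2. From 16 to 24 weeks 0 rows were called higher (0%) and 0 lower (0%), and the lowest adjusted p was 0.999. At an unadjusted p under 0.05 there were 321 rows (2.38% of 13510), 241 of them higher (1.78%) and 80 lower (0.592%). DESeq2's Wald test gave 380 rows at that unadjusted p, edgeR's exact test gave 286, and neither called a row. In the same fit the preceding step, from 12 to 16 weeks, called 1173 rows higher (8.68%) and 465 lower (3.44%), with 4056 rows at an unadjusted p under 0.05. Between 12 and 24 weeks 719 rows were called higher (5.32%) and 50 lower (0.37%). The comparisons share libraries and are set side by side without a test of one against the other.

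**Figure D1:**
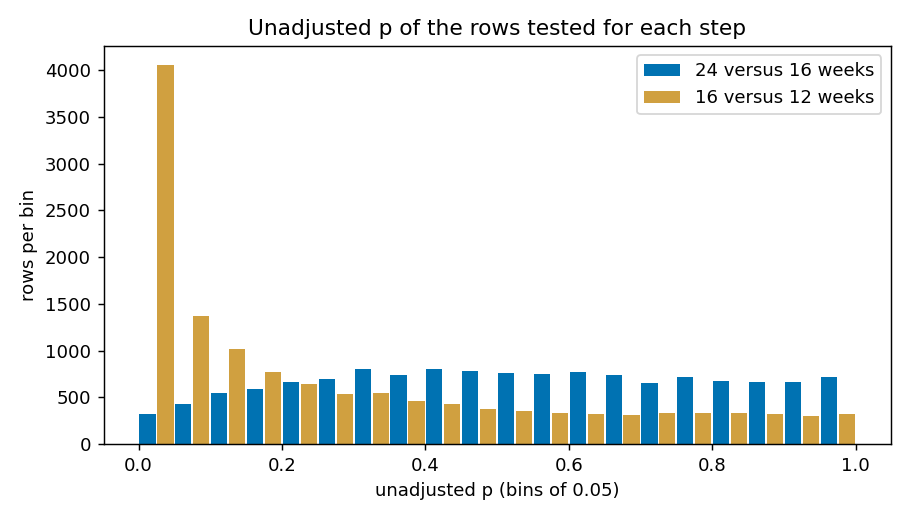
Number of rows in each bin of the unadjusted p (x axis, bins of 0.05; y axis, rows per bin) for 24 versus 16 weeks (blue) and 16 versus 12 weeks (yellow) of WD. The blue bars are lowest in the first bin, with 321 rows, while the yellow bars reach 4056 rows there.

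The plot of the unadjusted p shows how differently the 2 steps were distributed. For 24 versus 16 weeks the first bin, p under 0.05, was the emptiest of the 20 bins with 321 rows, and the others held 432 to 806. For 16 versus 12 weeks the first bin was the fullest. The shape for 24 versus 16 weeks depended on the fit: with the 8 libraries alone and their letters A to D as a block, chosen after seeing the data, 909 rows had a p under 0.05 and 0 were called (lowest adjusted p 0.67).

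Fold changes from 16 to 24 weeks were small. Their median was 0.01 on the log2 scale, with quartiles of -0.14 and 0.19, and 223 rows (1.65%) differed at least 2-fold, against 2105 rows (15.6%) for 16 versus 12 weeks. Of the 223, 158 were higher and 65 lower at 24 weeks, none called. A missing call does not show that a row stayed level, so the 95% confidence interval of each change was read as well. The interval lay within 2-fold in either direction for 9147 rows (67.7%), beyond 2-fold for 5 and across the limit for 4358. Within 4-fold lay 95.8% of the rows. For a typical row the half-width of the interval was 0.53 (log2), a 1.45-fold change.

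Precision depended on abundance. Among rows with a mean log2CPM of up to 2, 8.84% had an interval within 2-fold, and the typical half-width there was 1.19. Between 2 and 4 the share was 46.6%, between 4 and 6 it was 79.0%, and between 6 and 8 it was 82.2%. Above 8 it was 74.2% of 631 rows. A 2-fold change thus lay outside the interval of most rows of middle and high level and of few of the lowest, and 3 of the 5 rows beyond 2-fold belonged to the lowest class.

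Libraries at 24 weeks all stood above those at 16 weeks in 132 rows (0.977%) and all below in 124 rows (0.918%). The row with the lowest p, at line 18759, had 9.38, 5.51, 8 and 6 CPM in libraries A, B, C and D at 16 weeks and 17.3, 11.4, 19.3 and 58.0 CPM at 24 weeks. The groups did not overlap, and library D at 24 weeks was far above the others (log2FC 1.88 ± 0.40 SE, edgeR's quasi-likelihood test, unadjusted p = 0.00026, adjusted p = 0.999). The second, at line 20702, had 43.2, 21.2, 25.2 and 23.2 CPM at 16 weeks and 5.91, 9.92, 9.01 and 6.32 CPM at 24 weeks. Here every library at 24 weeks lay below every library at 16 weeks, by a log2FC of -1.86 ± 0.44 (SE), again without passing the adjusted test (adjusted p = 0.999). These 2 rows were picked by their p after the values were seen.

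The second question was how far the response to WD stood at 24 weeks. Rows were grouped by lists from comparisons that contain no library of 16 or 24 weeks. The fit behind the 12-week lists held all 16 WD libraries, so its filter, scaling and estimate of spread drew on those libraries too. Rows called at 12 weeks against chow gave 2508 induced (18.6% of rows tested) and 893 repressed rows (6.61%). Rows called at 8 weeks of CCl4 against vehicle gave 2945 induced (21.8% of 13513 rows tested) and 3246 repressed rows (24%), of which 2849 and 3241 were tested in WD. None of the rows of any list was called between 24 and 16 weeks.

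Induced rows leaned down and repressed rows leaned up. Over the 2508 rows induced at 12 weeks the median log2FC from 16 to 24 weeks was -0.15, and 76.7% of them were lower at 24 weeks, against 48.6% of all rows tested. The 893 rows repressed at 12 weeks had a median of 0.08, with 29.2% lower. CCl4-induced rows had a median of -0.10 and 66.9% lower, and CCl4-repressed rows a median of 0.13 and 24.7% lower. Rows of a list move together within a library, so these shares rest on 4 libraries against 4 and not on so many independent rows.

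**Figure D2:**
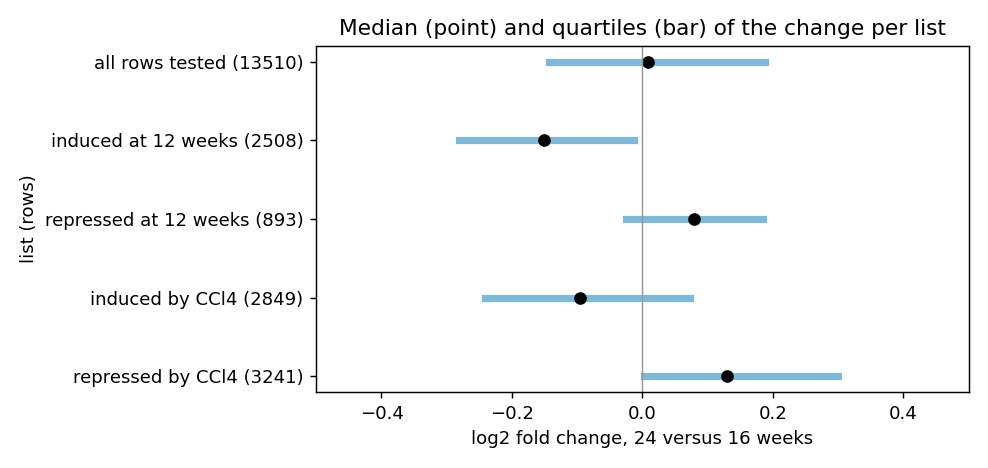
Median (black point) and lower to upper quartile (blue bar) of the log2 fold change from 16 to 24 weeks of WD (x axis) over all rows tested and over each of 4 lists (y axis, number of rows in brackets). The medians run from -0.15 for rows induced at 12 weeks to 0.13 for rows repressed by CCl4, and all lie within 0.2 of 0.

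The plot of the list medians shows that the shifts were opposite in sign to the direction of each list and small beside the response itself. For rows induced at 12 weeks the median log2FC against chow was 2.14 at 12 weeks, 2.22 at 16 weeks and 2.12 at 24 weeks. For rows repressed at 12 weeks it was -0.61, -0.72 and -0.62. For CCl4-induced rows the WD medians against chow were 0.57, 1.09 and 1.00, and for CCl4-repressed rows -0.41, -0.74 and -0.61. The 3 comparisons of a list share the chow libraries. The lists of rows induced or repressed at 12 weeks were chosen by the 12-week comparison, which favours large values there. In the lists defined by CCl4 the median changes from 12 to 16 weeks were 0.46 and -0.41. They were larger than those from 16 to 24 weeks (-0.10 and 0.13), but not larger than those from chow to 12 weeks (0.57 and -0.41).

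Leaving out a single library changed the size of these medians and in 1 list the sign. The 12-week lists were rebuilt in each of these fits, so their rows could change as well. For rows induced at 12 weeks the median ran from -0.27 without library D of 24 weeks to -0.05 without library B of 24 weeks, and was -0.08 without library A of 16 weeks. For rows repressed at 12 weeks it ran from 0.02 without library B of 24 weeks to 0.14 without library D of 24 weeks. The median of the CCl4-induced rows was 0.01 without library C of 16 weeks, -0.01 without library A or without library B of 24 weeks, -0.02 without library D of 16 weeks, and between -0.21 and -0.15 without any of the other 4. The CCl4-repressed median was 0.03 without library C of 16 weeks and 0.22 without library B of 16 weeks. Among rows repressed at least 4-fold at 12 weeks, only 13 rows, the median was -0.31 and the typical half-width of the interval 1.25.

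Finer lists, chosen after the data were seen, separated the rows by both treatments. The 1041 rows induced both at 12 weeks of WD and by CCl4 had a median log2FC from 16 to 24 weeks of -0.14, with 79.0% lower. The 937 rows induced at 12 weeks that differed under 2-fold from vehicle under CCl4, with an adjusted p above 0.05, had a median of -0.14 as well, with 77.8% lower. From 12 to 16 weeks the median was 0.31 in the first and -0.22 in the second list. Both lists were chosen by high levels at 12 weeks, which favours a fall afterwards. The fall in the second list cannot be separated from this choice. Positions (defined below) of 12-week libraries A, B, C and D in the second list were 151.1%, 107.8%, 96.15% and 86.65%. Its 12-week mean thus leaned on library A. Whether the course before 16 weeks differed between the lists was not tested. Rows induced by CCl4 but not called at 12 weeks (1797) had a median of -0.06 and 60.1% lower, and rows repressed by CCl4 but not called at 12 weeks (2524) a median of 0.16 and 22.0% lower.

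Against chow, 3712 rows were called higher (27.5%) and 3280 lower (24.3%) at 16 weeks, and 3236 were called higher (24%) and 2241 lower (16.6%) at 24 weeks. Both counts were smaller at 24 weeks, although no row was called between the 2 time points. A row near the threshold can pass at one time point and miss it at the other, so the counts do not show a set of rows that returned. Without library C of 16 weeks the order of the higher rows turned, with 3210 at 16 weeks and 3224 at 24 weeks. The count of lower rows at 24 weeks was 1364 without library C and 1551 without library D of that group.

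Each library was then placed on a scale between chow and 16 weeks. The score of a list was the mean log2(CPM + 1) of its rows with a mean log2CPM above 2 over the 16- and 24-week libraries. Levels in the compared groups thus helped to choose these rows. They were 2490 induced and 865 repressed at 12 weeks, and 2667 induced and 3130 repressed by CCl4. The position of a score was set to 0% at the chow mean and 100% at the 16-week mean. At 24 weeks the mean position was 94.4 ± 11.5% for rows induced at 12 weeks, 89.4 ± 20.9% for rows repressed at 12 weeks, 95.5 ± 18.6% for CCl4-induced rows and 81.0 ± 40.8% for CCl4-repressed rows (SD, n = 4). All 4 means were below 100% and all 4 differed from it by less than the SD. At 12 weeks the corresponding means were 93.3%, 86.3%, 60.5% and 43.4%. The first 2 lists were chosen by their difference between 12 weeks and chow, which favours a high position at 12 weeks. The CCl4 lists were not chosen in this way, so the 12-week positions of the 2 kinds of list cannot be compared.

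**Figure D3:**
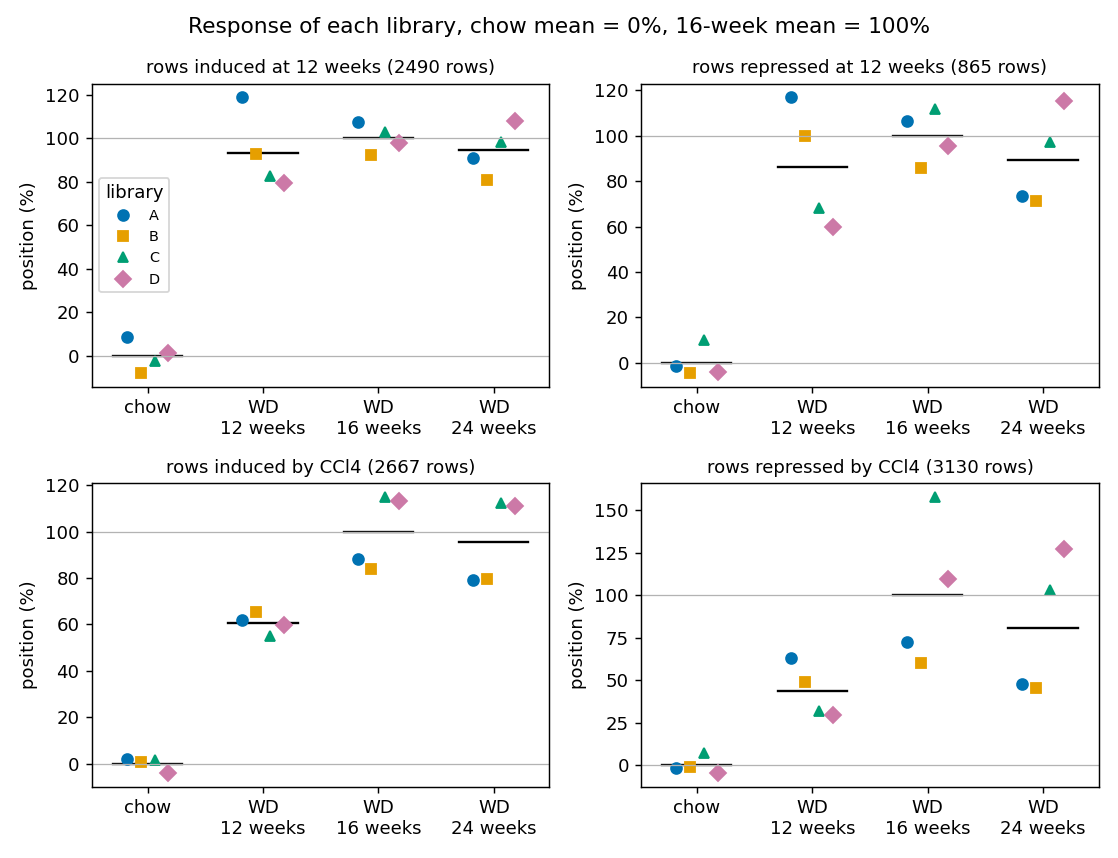
Position of each library (symbols A to D) between the chow mean (0%) and the 16-week mean (100%), y axis in percent, for the 4 groups of the WD experiment (x axis) and 4 lists of rows, with black lines at the group means. Libraries of 16 and 24 weeks overlap in every list, and for the CCl4-induced rows libraries A and B lie below 90% and C and D above 110% at both times.

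For rows induced at 12 weeks, libraries A, B, C and D were at 107.2%, 92.3%, 102.6% and 97.9% at 16 weeks. At 24 weeks they were at 90.7%, 80.9%, 98.2% and 108.0%. The highest library of all 8 was thus D of 24 weeks and the lowest was B of 24 weeks. Of the 16 pairs of a 24-week with a 16-week library, 10 had the lower score at 24 weeks, and the pairwise differences ran from -0.65 to 0.39 (log2).

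For CCl4-induced rows the positions were 88.2%, 84.0%, 114.8% and 113.0% at 16 weeks and 79.1%, 79.6%, 112.4% and 110.8% at 24 weeks. In both groups A and B were low and C and D high, and the gap between these libraries was wider than any difference between libraries of the same letter. The 4 same-letter differences in score were -0.15, -0.08, -0.04 and -0.04, the only one of the 4 lists in which all had the same sign. The others had library D opposite to A, B and C, as for rows induced at 12 weeks with -0.41, -0.28 and -0.11 in A, B and C and 0.25 in D.

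CCl4-repressed rows were the most variable. At 16 weeks the positions were 72.6%, 60.2%, 157.7% and 109.5%, and at 24 weeks 47.9%, 45.7%, 103.1% and 127.4%, where a higher position is a lower level. Library C of 16 weeks held the lowest level of the 8. Without it the mean position at 24 weeks was 101.2%, and without library D of 24 weeks it was 66.1%.

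The depth of the libraries moved with this split. The totals were 4419129, 3563264, 5545026 and 5034793 for A, B, C and D at 16 weeks and 4308508, 4643716, 4737971 and 6404105 at 24 weeks, so that C and D were larger than A and B in both groups. The share of counts in the 10 highest rows was 1.86%, 2.09%, 1.74% and 1.76% at 16 weeks and 2.08%, 1.97%, 1.74% and 1.61% at 24 weeks. With every library thinned to 2425443 counts, the smallest total of the WD experiment (a check chosen after seeing the data), the positions for CCl4-induced rows were 89.5%, 84.7%, 113.4% and 112.4% at 16 weeks and 79.6%, 80.4%, 111.5% and 110.5% at 24 weeks. C and D were above A and B in both groups after thinning as well, and the part of the other library properties was not tested. In bulk libraries such as these, fewer cells of a type and less RNA per cell cannot be told apart.

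Single rows were followed next. The rows with the 5 highest and the 5 lowest fold changes at 12 weeks against chow are given for every library. They were taken among called rows with a mean log2CPM above 4. Their 12-week levels are fixed by this choice. The compared groups entered that mean, so their levels helped to choose the rows as well. Chow libraries were at or near 0 for the induced rows, so levels are given in place of folds.

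At line 15364 the chow libraries held 0 to 0.548 CPM and the 12-week libraries 93.0 to 256 CPM. At 16 weeks A, B, C and D held 529, 425, 659 and 652 CPM, and at 24 weeks 356, 304, 593 and 581 CPM. Each 24-week library was below the 16-week library of its letter, but the groups overlapped and the log2FC was -0.31 ± 0.32 (SE, 95% confidence interval -0.99 to 0.38).

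Line 853 was at 0 in all 4 chow libraries and at 7.48 to 14.5 CPM at 12 weeks. At 16 weeks it was at 42.3, 38.3, 116 and 113 CPM, and at 24 weeks at 27.7, 28.9, 89.0 and 78.1 CPM. The libraries C and D were above A and B at both times, with a log2FC from 16 to 24 weeks of -0.47 ± 0.46 (SE). Line 17137 followed the same pattern, with 92.0, 90.4, 316 and 272 CPM at 16 weeks and 57.0, 59.9, 234 and 272 CPM at 24 weeks (log2FC -0.31 ± 0.52).

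For the remaining 2 induced rows library D of 24 weeks was the highest of the 8. Line 21110 held 20.8 to 115 CPM at 12 weeks, 39.6, 20.6, 32.3 and 29.4 CPM at 16 weeks and 21.3, 11.4, 21.6 and 51.5 CPM at 24 weeks. Line 1101 held 15.4 to 25.9 CPM at 12 weeks, 12.8, 8.11, 21.0 and 13.2 CPM at 16 weeks and 27.7, 12.7, 23.9 and 99.0 CPM at 24 weeks. For line 1101 the log2FC was 1.56 ± 0.54 (SE, edgeR's quasi-likelihood test, unadjusted p = 0.013, adjusted p = 1), and the groups overlapped.

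**Figure D4:**
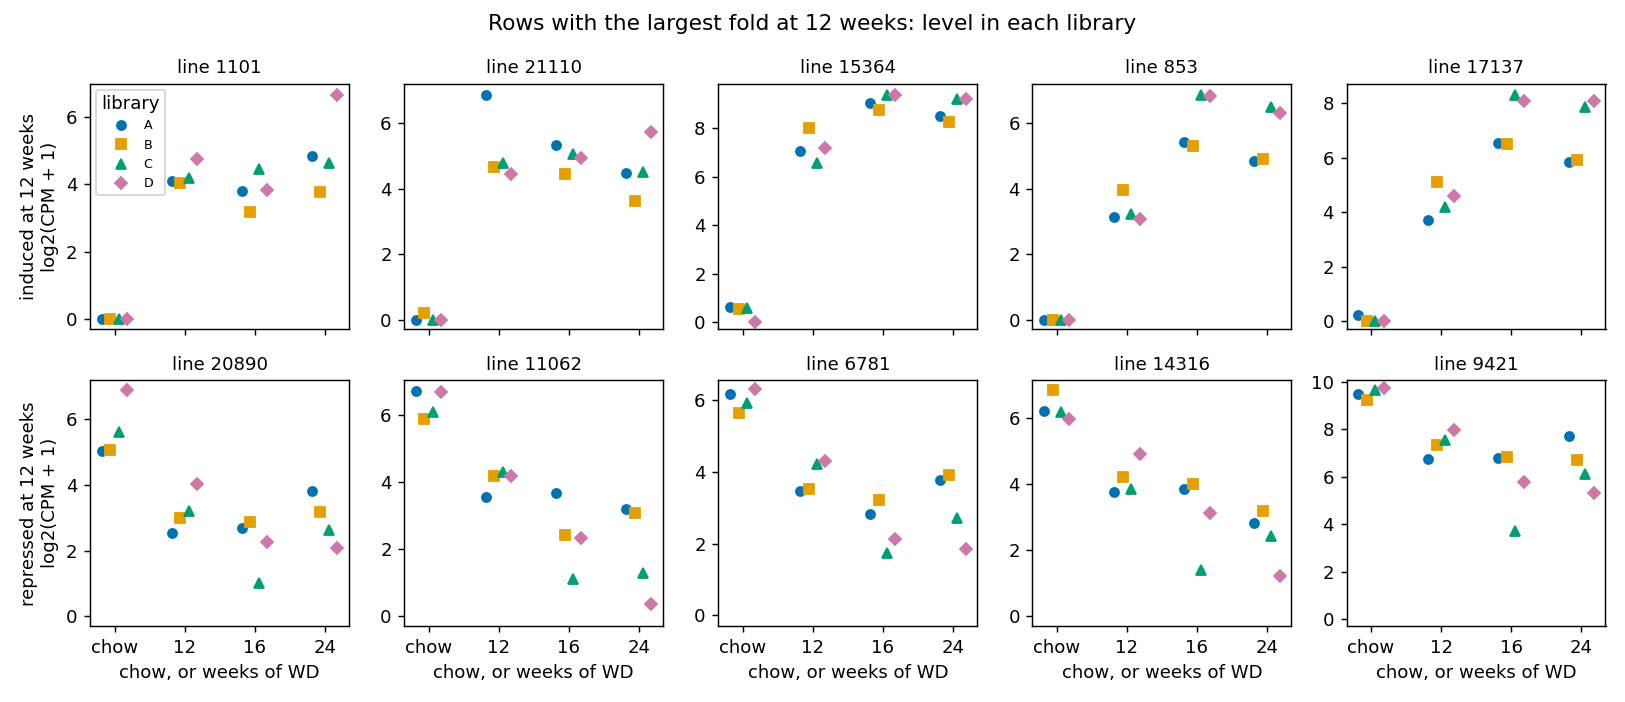
Level of the 5 rows most induced (top) and the 5 most repressed (bottom) at 12 weeks of WD, as log2(CPM + 1) on the y axis, in each library A to D of chow and of 12, 16 and 24 weeks of WD (x axis), each panel titled with the line of the row. The 16-week and the 24-week libraries overlap in all 10 panels, and in lines 853 and 17137 libraries C and D stand above A and B at both times.

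In all 5 repressed rows every 24-week library was below every chow library. Line 9421 held 605 to 861 CPM in chow, 108, 112, 12.0 and 53.2 CPM at 16 weeks and 209, 102, 67.4 and 39.3 CPM at 24 weeks (log2FC from 16 to 24 weeks 0.56 ± 0.55 SE). Line 6781 held 49.2 to 79.4 CPM in chow, 6.18, 8.40, 2.33 and 3.40 CPM at 16 weeks and 12.8, 14.2, 5.65 and 2.65 CPM at 24 weeks. In A, B and C the 24-week library was the higher of its letter, in D the lower, and the log2FC was 0.82 ± 0.48.

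Line 20890 held 32.0 to 117 CPM in chow, 5.49, 6.38, 1.00 and 3.80 CPM at 16 weeks and 13, 7.98, 5.24 and 3.24 CPM at 24 weeks (log2FC 0.84 ± 0.61). Lines 11062 and 14316 were lower at 24 weeks on average, with log2FC of -0.31 ± 0.71 and -0.92 ± 0.57. For line 14316 the CPM were 13.5, 15.1, 1.67 and 7.80 at 16 weeks and 6.15, 8.19, 4.40 and 1.32 at 24 weeks. All 10 intervals of the change from 16 to 24 weeks except that of line 1101 included 0. The 24-week levels of line 1101 had helped to choose it.

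Among the 3 rows with the highest mean CPM, which were not corrected for length, line 7597 was the steadiest. It held 2420, 3210, 2340 and 2720 CPM at 16 weeks and 3210, 2850, 2650 and 2170 CPM at 24 weeks, a log2FC of 0.03 ± 0.19 with an interval of -0.38 to 0.44. Line 11319 held 1800, 2740, 410 and 1220 CPM at 16 weeks and 2960, 2830, 1510 and 844 CPM at 24 weeks. The interval of line 11319 was wider, -0.58 to 1.38, and the libraries of one group differed several-fold although each held 2461 counts or more.

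The third question was whether the 2 steps of the time course differed. In a contrast of the change from 16 to 24 weeks with the change from 12 to 16 weeks, 84 rows (0.622%) had a lower and 7 (0.0518%) a higher later step. The 84 rows all had higher levels at 16 than at 12 weeks, by a median log2FC of 2.76, and 83 of them were lower at 24 than at 16 weeks, by a median of -0.36, which left them 2.36 above 12 weeks. The 7 rows had medians of -0.84 and 0.43 for the earlier and the later step. The 16-week libraries enter both steps with opposite sign, so both steps move with the measured level at 16 weeks.

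These counts depended on single libraries. No row was called in either direction without library C of 16 weeks, library D of 16 weeks, library A of 24 weeks or library B of 24 weeks. Without library A or B of 16 weeks or library C or D of 24 weeks, 323 to 474 rows had the lower and 27 to 77 the higher later step. With the letter as a block the counts were 390 and 51.

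The fourth question was the spread between libraries. The biological coefficient of variation, the spread between libraries beyond counting error, was 0.329 at 16 weeks and 0.335 at 24 weeks, close to 0.315 at 12 weeks and above 0.164 in chow. At 16 weeks it was 0.279 without library C and 0.372 without library D of that group. At 24 weeks it was 0.27 without library D and 0.376 without library C of that group. The median SD of log2(CPM + 1) was 0.310 at 16 weeks, 0.325 at 24 weeks and 0.193 in chow. Of all rows, 52.8% had the higher SD at 24 weeks, while an SD above 1 was more frequent at 16 weeks (829 rows, 6.14%) than at 24 weeks (667 rows, 4.94%). The distance of a library from the mean of the other 3 of its group was 66.7 ± 14.9 at 16 weeks and 65.9 ± 15.3 at 24 weeks (SD, n = 4, exact permutation test, two-sided p = 0.89), and the difference did not pass the test.

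Much of the spread was in the same rows at both times. Of the 500 rows with the largest SD at 16 weeks, 208 (41.6%) were among the 500 with the largest SD at 24 weeks, whereas 27 (5.4%) were among those of chow and 24 (4.8%) among those of 12 weeks. Line 20970 had the largest SD of rows above a log2CPM of 4 in both groups. It held 26.1, 37.4, 0.833 and 1.60 CPM at 16 weeks and 52.0, 47.9, 2.30 and 0.882 CPM at 24 weeks, with A and B high and C and D low both times. Line 12174 was split in the same way, with 172, 212, 19.7 and 39.8 CPM at 16 weeks and 162, 257, 43.6 and 14.7 CPM at 24 weeks.

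Not every variable row split A and B from C and D. Line 16245 held 80.3, 2.61, 13.3 and 41.0 CPM at 16 weeks and 89.2, 34.3, 54.5 and 77.1 CPM at 24 weeks. Its libraries ran in the order A, D, C and B from high to low at both times, with library B of 16 weeks the lowest. Line 11184 held 29.3, 33.0, 0.667 and 11.4 CPM at 16 weeks and 6.86, 28.5, 2.09 and 0.882 CPM at 24 weeks. Here A and B were above C and D at both times, but only B stayed near its level.

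Whole libraries were compared by the Euclidean distance of log2(CPM + 1) over all rows tested. The group means of 16 and 24 weeks were 33.6 apart, against 85.1 for 12 and 16 weeks and 72.01 for 12 and 24 weeks. From chow the 16-week mean was 188.9 away and the 24-week mean 174.5. A pair of one 16-week and one 24-week library was 44.5 to 126.1 apart with a median of 69.3, which lay below the medians within 16 weeks (77.6) and within 24 weeks (77.7). Of the 8 libraries, 4 had their nearest library in the other group, and the closest pair was D of 16 weeks with C of 24 weeks, at 44.5.

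**Figure D5:**
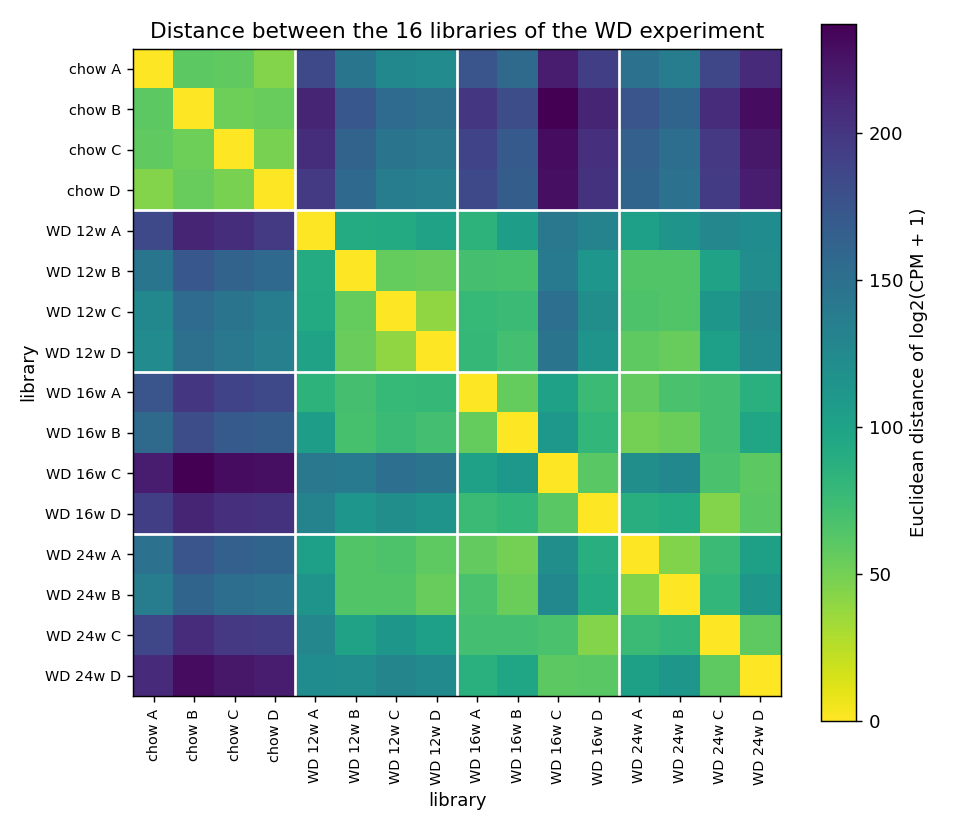
Euclidean distance of log2(CPM + 1) between each pair of the 16 libraries of the WD experiment (both axes; darker is farther), with white lines between the groups. The block of 16 against 24 weeks spans 44.5 to 126.1, like the blocks within 16 weeks and within 24 weeks, and libraries A and B of either group are farther from C of 16 weeks than from each other.

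The distance map shows the split of the letters without any list. When the 8 libraries were reduced to principal components, the first held 64.6% of the variance. Libraries A, B, C and D scored -22.4, -36.4, 67.1 and 28.3 at 16 weeks and -46.9, -53.7, 16.7 and 47.3 at 24 weeks. The sign of the score thus followed the letter in both groups, and neither group was confined to one side.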

How the data were processed

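Purified polyA-selected RNA of FACS-sorted HSCs was sequenced by the authors, and the deposited table holds raw exon read counts per gene with no normalization. The submitters' processing notes name STAR, HOMER and the mm10 build. Per the file headers, exon reads of both strands were counted together, with at most 3 reads per position, so overlapping genes cannot be told apart and the highest rows may be held down. Groups and letters were taken from the sample labels, which call the samples biological replicates. The members and lists were chosen with earlier results of these data known.

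Counts were analysed with edgeR 4.0.16 in R 4.3.3 (filterByExpr, TMM, glmQLFit, Benjamini-Hochberg adjustment, all 16 WD libraries in one fit, CCl4 libraries fitted alone). DESeq2 1.42.0 and edgeR's exact test were alternatives. Calls needed an adjusted p not above 0.05 and, over the groups compared, a mean log2CPM exceeding 2. Intervals were the estimate ± the t quantile times its SE. The procedure was run on simulated counts in which rows varied independently and libraries A and B were not split from C and D. Its behaviour under such a split was not tested. Rows cited were any called with groups that did not overlap (none), the 5 highest and 5 lowest fold changes at 12 weeks, the 3 highest in mean CPM and the 3 largest SDs at each time point.

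The groups share the letters A to D. The deviations of 16-week and 24-week libraries from their group means were taken from the counts. They correlated by 0.586, 0.680, 0.636 and 0.324 for A, B, C and D, all above 0.1. The letters may therefore pair the samples of these groups, although 2 of the 4 libraries at 24 weeks correlated best with another letter. Between 12 and 16 weeks the same-letter correlations were 0.13, 0.08, -0.37 and 0.22. Between 12 and 24 weeks they were -0.19, 0.08, -0.21 and -0.35. No label says what a letter stands for. All values are from unpaired fits and tests unless a block is named. The table of in vitro cultures was not used here.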

Additional observations from a re-analysis of the deposited data

Results flagged for a closer look

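The following counts were listed for a closer look because the change from 16 to 24 weeks differed from the change from 12 to 16 weeks of WD by a test of the difference. The later step was lower in 84 rows and higher in 7 rows, and both counts became 0 without any one of 4 libraries (C or D of 16 weeks, A or B of 24 weeks). No library stood apart from the other 3 of its group in the 66 combinations of a measure with a group of 4 libraries that were examined for a far value (Dixon's test), where chance alone marks about 1 in 20. Dixon's test looks for a single far value, so it cannot mark a split of A and B from C and D.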

How the results depend on the processing

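The count of rows called between 24 and 16 weeks was 0 in each direction under all 22 alternatives run: other scalings, no filter, DESeq2, edgeR's exact test, other thresholds, thinned counts, the 8 libraries alone, the letter as a replicate block and each library left out. Rows at an unadjusted p under 0.05 numbered 201 to 635 with a library left out, 350 with the letter as a replicate block and 909 with this block in a fit of the 8 libraries alone (lowest adjusted p 0.67), an alternative added after seeing the data. In the fit of all 16 libraries the block moved no count of calls other than those of the steps by over 1.5 times (lower rows at 24 weeks against chow became 2455).

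Rows with a higher and a lower later step numbered 2 and 34 with library totals, 51 and 390 with the letter as a replicate block, 179 and 585 with DESeq2, 0 and 0 at an FDR of 0.01 and 122 and 515 at 0.1. The higher count was 4 with no filter and 12 with thinned counts. With a library left out they ran from 0 to 77 and from 0 to 474.

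Against chow, rows at least 2-fold changed were 2397 higher and 1597 lower at 16 weeks and 856 lower at 24 weeks. At an FDR of 0.01 the lower rows were 1942 at 16 weeks and 926 at 24 weeks, and with a library left out the lower rows at 24 weeks ran from 1364 to 2594. The median of rows repressed at 12 weeks was -0.31 for the 13 rows changed at least 4-fold. The difference in lower quartile (24 minus 16 weeks) was -0.022 with no filter and ran from 0.0079 to 0.079 with a library left out (exact permutation p = 0.029, the smallest possible, without library A of 16 weeks). The difference in distance to the rest of the group was 0.298 with a pseudocount of 5 and ran from -12.5 to 9.65 with a library left out. Where a value moved, the cause was not tested, except that leaving out a library lowers the number of samples. The position of 24 weeks lay between 66.1% and 101.2% over the 4 lists defined at 12 weeks or by CCl4 and the alternatives run on them. The finer lists were not rerun.

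Precision was lowest for rows with a mean log2CPM of up to 2, of which 8.84% had an interval within 2-fold, and the part of counting error in this was not tested. The age at first exposure and the length of WD feeding cannot be told apart.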
